A study of Rattus norvegicus with 10 samples.

Results

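The switch from the early to the later response of Sertoli cells to follicle-stimulating hormone (FSH) was followed by setting 2 arrays of cultures treated with FSH for 8 h against 2 arrays of cultures treated for 2 h. These are 4 of the 10 arrays of the series, and the 4 were compared in same-numbered pairs, replicate 1 with replicate 1 and replicate 2 with replicate 2. All cultures were Sertoli cells from 20-day-old rats, grown in vitro, and total RNA was hybridised to a rat oligonucleotide array of 8799 probe sets. The other treated groups, FSH for 4 h and for 24 h with 2 arrays each, entered the fit for the estimate of spread and of the difference between replicate numbers, and their levels are given where they show when a change took place. The 2 arrays of 0 h control cultures enter none of the values below except 1 alternative fit on all 10 arrays, so a level is described here only against other FSH-treated cultures. Both groups had received FSH and differed in hours of treatment, and the effects of longer culture and of longer exposure to FSH cannot be told apart. The title of 1 of the 2 h arrays carries no replicate number; the partner array is labelled replicate 2, and this one is treated as replicate 1. Nothing in the labels says that replicates were separate cultures or animals, and the spread behind the p-values is that between these arrays and may be technical.

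Sertoli cells are the somatic cells of the seminiferous tubule that support germ cells. FSH acts on them through the receptor Fshr, which raises cAMP and activates protein kinase A; the kinase phosphorylates CREB, and CREB on cAMP response elements starts transcription of immediate early genes. Many of the first genes encode transcription factors or inhibitors of signalling with short-lived transcripts, and genes for enzymes and secreted proteins tend to follow them.

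Deposited intensities were brought to a common 75th percentile of 109 per array and low values were set to a floor of 13.6; intensities below are the scaled values without the floor. A log2 change is 8 h minus 2 h, estimated with limma on 4426 of 8740 probe sets whose mean over the 8 FSH arrays reached 31.7, with the replicate number as a block, and is given ± its standard error (SE) with n = 2 arrays per time. A probe set is called where its Benjamini-Hochberg adjusted p lay under 0.05. Intensities of different probe sets cannot be set against each other, since probes differ in brightness.

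The summed germ cell markers and the beta-actin 3'/5' ratio, an index of RNA quality, differed more between replicate numbers than between times. Their part in the results was not tested. Clu, the abundant secreted clusterin of Sertoli cells, had 12025 and 7636 at 8 h, against 10752 and 8226 at 2 h (replicates 1 and 2 in this order throughout). Fshr had 82.2 and 57.3 at 8 h, against 123 and 91.5 at 2 h, and its other probe set lay under the floor on all 4 arrays. The 9 Sertoli markers, Clu among them, summed to 16860.5 and 10528 at 8 h, against 13132 and 10165 at 2 h. Of 8 tested Sertoli markers 1, Inha, was called (higher). The summed intensity of 21 germ cell markers was 869.9 and 3654 at 8 h, against 939 and 3544 at 2 h, and beta-actin probe sets had a 3'/5' ratio of 0.928 and 1.52 at 8 h, against 1.06 and 1.48 at 2 h. For GAPDH this ratio was 0.904 and 0.951 at 8 h, against 0.735 and 0.992 at 2 h. In replicate 1 it differed more between times than the replicates differed at 8 h. None of 12 tested germ cell markers, 11 of peritubular myoid cells, 2 of Leydig cells, 2 of endothelial cells and 1 of macrophages was called by limma between 8 h and 2 h. The lowest unadjusted p of these markers was 0.00676, and 4 of their 40 tested probe sets had an unadjusted p under 0.05, against 652 of all 4426. The 13 myoid markers summed to 1591 and 2060 at 8 h, against 1312 and 2967 at 2 h. The Leydig list summed to 285 and 286 at 8 h, against 301 and 389 at 2 h, the endothelial list to 199 and 136 against 217 and 158, and the macrophage list to 157 and 146 against 171 and 162. Members of the Leydig list differed. Cyp17a1 lay under the floor on all 4 arrays of 2 h and 8 h, but not at 4 h (17.9 and 15.1). Hsd11b1 had 180 and 198 at 8 h, against 175 and 334 at 2 h, well above the floor. In RNA of whole cultures, fewer cells of a type and less RNA per cell cannot be told apart.

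Between 2 h and 8 h, 84 probe sets (63 of 2721 tested genes) were called higher at 8 h and 63 (41 genes) lower. That is 1.90% and 1.42% of all tested probe sets, together 147 or 3.32%. The median log2 change over all tested probe sets was 0.02, and 652 of them had unadjusted p-values under 0.05. All 147 changed in the same direction in both pairs. The rises had a median of 1.77 log2 units within replicate 1 and 1.54 within replicate 2, and the falls -2.02 and -1.79, sizes that the calling itself keeps away from 0. In 146 of the 147 both 8 h arrays lay beyond both 2 h arrays on the called side, which the calling on these same arrays nearly fixes; over all tested probe sets the shares were 17.1% above and 15.2% below.

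These counts depend on pairing the arrays by number. Without the replicate block only 6 of the 147 kept an adjusted p under 0.05, namely 1 probe set each of Nr4a2, Id3, Dgat1 and Acsl1 and both of Junb, and the other 141 had adjusted p-values from 0.0538 to 0.927. Leaving out 8 h replicate 1 left 16 called higher and 18 lower, and leaving out 2 h replicate 1 or 2 left 25 and 22 or 35 and 17. Such a fit compares a group of 1. In 8 fits that each left out 1 of the FSH arrays, 24 probe sets were called every time, among them those of Nr4a1, Nr4a2, Errfi1, Id3, Junb, Fos, Ass1, Acsl1, Scarb1, Dgat1, Asns, Inha, Wfdc1 and Dgcr6. For called genes described below, the number of these 8 fits that called the named probe set is given where it is under 6.

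**Figure D1:**
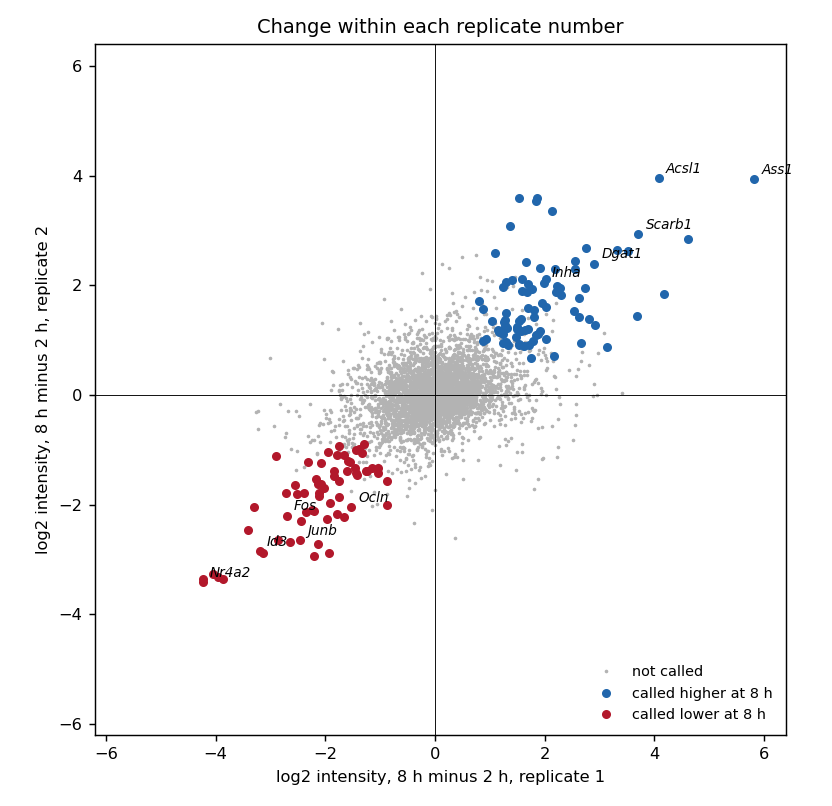
Log2 change, 8 h minus 2 h, within replicate 1 (horizontal) and within replicate 2 (vertical) for the 4426 tested probe sets, with the 84 called higher in blue and the 63 called lower in red. All blue points lie above 0 and all red points below 0 on both axes, and Ass1 lies farthest to the upper right.

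Because FSH acts through cAMP, promoter windows of the largest falls and rises were read for the cAMP response element. The windows run from 250 bases before to 50 bases after the annotated start, from RefSeq (GRCr8), read 5' to 3' on the gene's strand. Shown are the genes with the 3 largest called falls as fitted (Nr4a2, Cebpb and Errfi1) and the 3 largest called rises (Ass1, Acsl1 and Cd24) among list members with an entry, whose values follow below. Scarb1, which rose more than Cd24, is not shown. Capitals mark the short core of the element, TGACG on either strand; the full element TGACGTCA contains the core on both strands.
Nr4a2 (chr3:62104838-62105137, minus strand): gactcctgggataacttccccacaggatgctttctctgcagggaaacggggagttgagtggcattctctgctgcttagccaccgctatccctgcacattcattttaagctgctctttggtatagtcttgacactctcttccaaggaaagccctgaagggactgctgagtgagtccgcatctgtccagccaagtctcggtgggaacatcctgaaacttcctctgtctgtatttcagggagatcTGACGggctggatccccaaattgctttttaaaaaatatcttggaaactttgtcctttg
Cebpb (chr3:176816755-176817054, plus strand): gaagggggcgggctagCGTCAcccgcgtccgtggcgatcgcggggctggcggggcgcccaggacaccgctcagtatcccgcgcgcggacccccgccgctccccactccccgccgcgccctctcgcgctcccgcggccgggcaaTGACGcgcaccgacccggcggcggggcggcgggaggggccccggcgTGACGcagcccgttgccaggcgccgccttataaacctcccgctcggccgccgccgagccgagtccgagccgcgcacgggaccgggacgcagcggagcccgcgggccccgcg
Errfi1 (chr5:166606591-166606890, plus strand): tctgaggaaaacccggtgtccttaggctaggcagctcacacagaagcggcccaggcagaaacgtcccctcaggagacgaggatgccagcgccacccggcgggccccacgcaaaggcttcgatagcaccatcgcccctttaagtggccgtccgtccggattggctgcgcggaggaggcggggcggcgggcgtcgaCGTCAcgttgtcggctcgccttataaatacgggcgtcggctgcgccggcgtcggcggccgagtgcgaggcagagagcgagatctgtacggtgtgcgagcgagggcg
Ass1 (chr3:35149480-35149779, plus strand): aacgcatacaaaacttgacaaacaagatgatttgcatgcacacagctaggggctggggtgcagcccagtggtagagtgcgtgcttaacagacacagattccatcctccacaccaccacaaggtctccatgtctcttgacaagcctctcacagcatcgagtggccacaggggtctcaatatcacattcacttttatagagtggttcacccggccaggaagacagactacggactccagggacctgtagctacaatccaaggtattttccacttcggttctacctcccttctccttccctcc
Acsl1 (chr16:52532343-52532642, minus strand): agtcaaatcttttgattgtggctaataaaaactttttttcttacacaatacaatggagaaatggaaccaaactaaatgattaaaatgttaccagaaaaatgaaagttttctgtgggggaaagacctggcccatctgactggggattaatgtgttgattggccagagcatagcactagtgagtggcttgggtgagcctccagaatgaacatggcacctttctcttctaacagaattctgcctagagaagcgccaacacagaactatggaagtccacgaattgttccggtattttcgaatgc
Cd24 (chr20:48656227-48656526, plus strand): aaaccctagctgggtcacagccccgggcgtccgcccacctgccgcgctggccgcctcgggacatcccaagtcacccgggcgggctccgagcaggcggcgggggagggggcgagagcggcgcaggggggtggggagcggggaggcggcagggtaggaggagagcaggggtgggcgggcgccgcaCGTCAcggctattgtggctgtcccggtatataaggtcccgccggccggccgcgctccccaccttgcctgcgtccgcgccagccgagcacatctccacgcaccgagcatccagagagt

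The core was found once in the Nr4a2 window, 8 bases before the start, 3 times in that of Cebpb and once in that of Errfi1, 56 bases before the start. Cd24 held 1 core, 67 bases before the start, and the windows of Ass1 and Acsl1 held none. None of the 6 held the full element. Of all 27457 promoter windows 22.0% held the core and 1.91% the full element, and of the 2261 windows of tested genes 33.3% and 2.83%. Among the called genes with a window, the core was in 18 of 36 that fell and 19 of 50 that rose, and the full element in 2 and 2. A match is a description of letters in a window and not evidence of binding, and no match says only that these letters are not in that window. The annotated starts, that of Acsl1 among them, were not checked against the starts used in these cells. A window may therefore hold transcribed or coding sequence and miss the promoter in use.

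**Figure D2:**
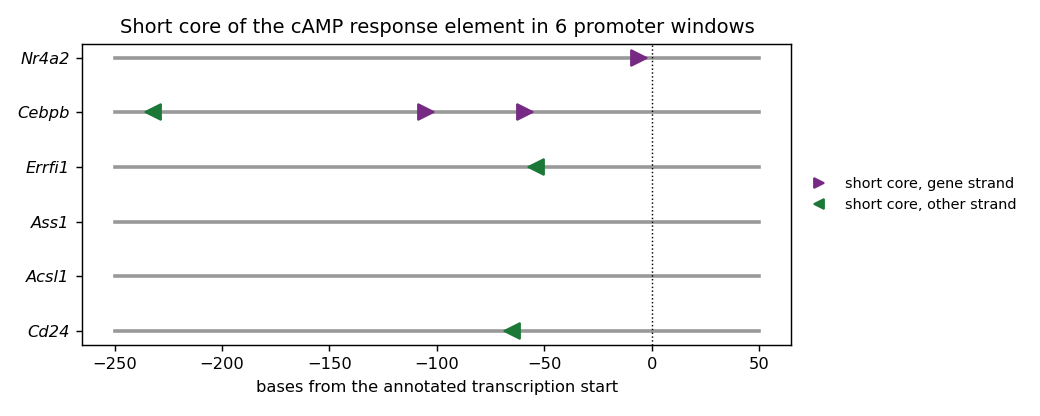
Position of the short core of the cAMP response element in the 6 promoter windows, in bases from the annotated transcription start (horizontal; the dotted line marks the start), with rightward triangles for the gene's strand and leftward ones for the other. Nr4a2, Cebpb, Errfi1 and Cd24 have at least 1 and Ass1 and Acsl1 none.

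The transcription factors of the first hours were the list with the most genes called lower. Of 18 tested genes on the list of immediate early transcription factors, 6 were called lower (12 of 35 probe sets) and none higher, and the list had a median log2 change of -0.89 against 0.02 over all 2721 tested genes. The 6 were the orphan nuclear receptors Nr4a1, Nr4a2 and Nr4a3, the AP-1 subunits Fos and Junb, and the zinc finger factor Klf4. The lists were drawn up with earlier results of these data known, so their direction is not independent evidence.

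Nr4a receptors bind DNA without a known physiological ligand and act as early factors downstream of cAMP. Nr4a1 had 131 and 115 at 8 h, against 1919.8 and 1184 at 2 h, a fall of 12.3-fold (log2 change -3.62 ± 0.34, limma adjusted p = 0.000373). Its second probe set had 99.8 and 40.6 at 8 h, against 721 and 253 at 2 h (log2 change -2.75 ± 0.25). On both probe sets the 2 arrays of each time lay well apart from those of the other. Nr4a2 had 13.4 and 16.2 at 8 h, against 257 and 173 at 2 h, with 8 h replicate 1 at the floor and replicate 2 close to it (log2 change -3.83 ± 0.36, adjusted p = 0.000373). The size of this fall depends on the floor, and was -2.95 with the floor at the 75th percentile divided by 4 in place of 8. A further Nr4a2 probe set had 29.6 and 29.8 at 8 h, against 313 and 164 at 2 h (-2.93 ± 0.49). Nr4a3 had 77.2 and 59.7 at 8 h, against 393 and 261 at 2 h (-2.24 ± 0.30, adjusted p = 0.00299). Another Nr4a3 probe set had 37.9 and 19.3 at 8 h, against 108 and 37.5 at 2 h and was not called (adjusted p = 0.377). At 4 h the Nr4a transcripts were still nearer to their 2 h level: on the first probe sets given, Nr4a1 had 1347 and 502, Nr4a2 121 and 72.9 and Nr4a3 331 and 184.

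Fos and the Jun family member Junb are subunits of AP-1 dimers. The 2 Junb probe sets agreed closely, with 169.7 and 161 at 8 h, against 938 and 1017 at 2 h for one and 173 and 184 at 8 h, against 946 and 906 at 2 h for the other, falls of 5.90-fold and 5.18-fold (log2 changes -2.56 ± 0.24 and -2.37 ± 0.24). The 3 Fos probe sets had log2 changes of -2.46 ± 0.29, -1.98 ± 0.27 and -1.95 ± 0.25, all called, the first with 93.8 and 67.2 at 8 h, against 612 and 310.0 at 2 h. Replicate 1 had more Fos than replicate 2 at both times, and the groups did not overlap. Jun itself had positive values on its 4 probe sets, from 0.73 to 1.26, none of them called (lowest adjusted p = 0.0883); it was picked out after its values were seen. Atf3, a CREB family factor of the stress response, had 172 and 153 at 8 h, against 466 and 204 at 2 h, and was not called (log2 change -0.93 ± 0.40, adjusted p = 0.312).

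Klf4, a zinc finger factor linked to Sertoli cell differentiation, was called only when arrays were compared by number. It had 279 and 102 at 8 h, against 1129.7 and 333 at 2 h, so that replicate 1 at 8 h lay close to replicate 2 at 2 h, yet both pairs changed alike, by -2.02 within replicate 1 and -1.71 within replicate 2 (log2 change -1.86 ± 0.28, adjusted p = 0.00539 and 0.823 without the block). A second Klf4 probe set gave -1.97 ± 0.38 (adjusted p = 0.0180). Each of the 2 was called in 5 of the 8 fits without 1 array.

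**Figure D3:**
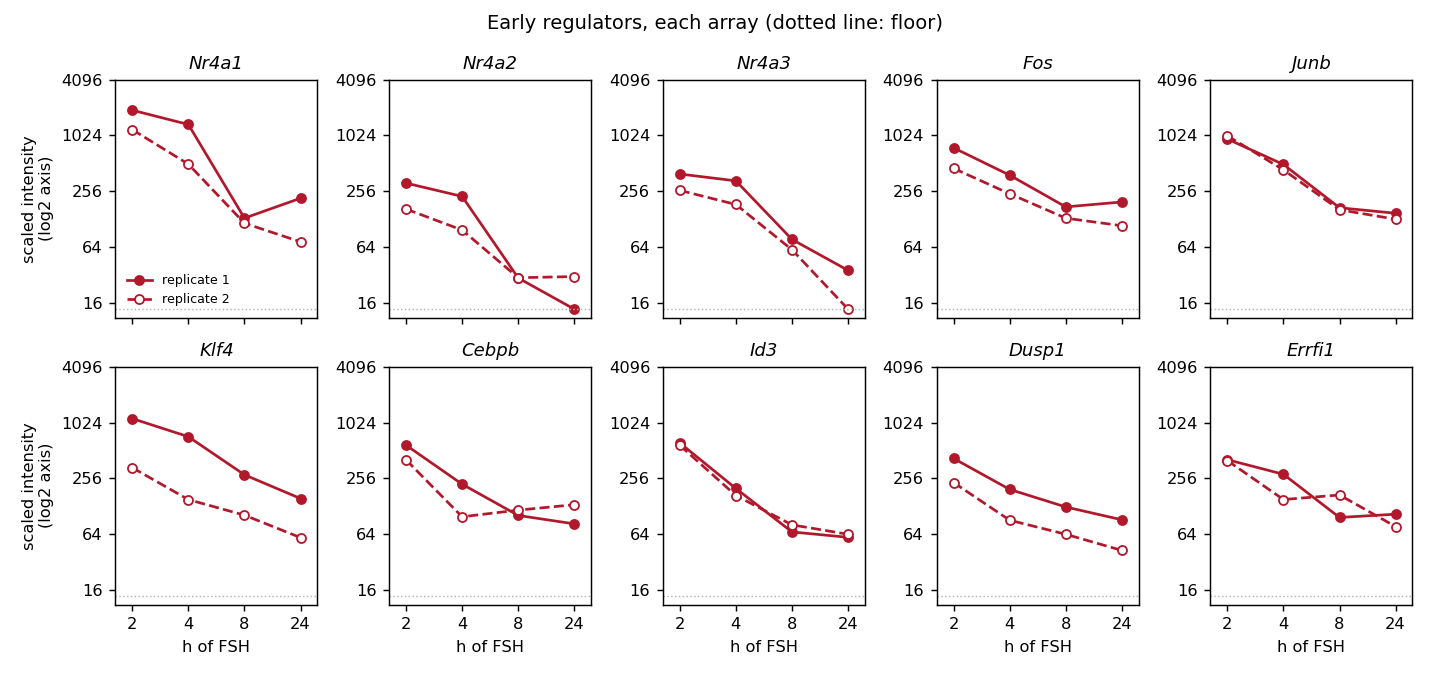
Scaled intensity (log2 axis) of 10 early regulators on each FSH array against hours of FSH (2, 4, 8 and 24), for the brightest tested probe set of each gene, with replicate 1 as filled and replicate 2 as open circles. In every panel both 8 h points lie below the 2 h point of the same replicate, and for Klf4 the 2 replicates keep apart at all 4 times.

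Of 14 tested genes among C/EBP, Myc and Id factors, 4 were called lower and none higher (median log2 change -0.45). Cebpb, a bZIP factor of cAMP and inflammatory responses, had 11.3 and 15.9 at 8 h, against 255 and 163 at 2 h on one probe set (-3.79 ± 0.54, adjusted p = 0.00400), with 8 h replicate 1 at the floor and a log2 change of -2.90 with the higher floor. Its other probe set had 101 and 116 at 8 h, against 583 and 405 at 2 h (-2.16 ± 0.39, called in 5 of the 8 fits). The groups were apart on both. Id proteins hold basic helix-loop-helix factors off DNA and so restrain differentiation. Id3 had 67.4 and 80.3 at 8 h, against 616 and 581 at 2 h, with close replicates at both times, and fell 8.13-fold (-3.02 ± 0.26, adjusted p = 0.000365; second probe set -2.43 ± 0.33). Id1 had 60.3 and 65.7 at 8 h, against 161 and 182 at 2 h (-1.44 ± 0.26, adjusted p = 0.0144, 4 of 8 fits), although its other probe set had -0.25 ± 0.35 and was not called. Id2 had 167 and 135 at 8 h, against 172 and 249 at 2 h and a log2 change of -0.47 ± 0.35 that was not called (adjusted p = 0.622). Hes1, the repressor that mediates Notch signals, had 129.6 and 132 at 8 h, against 324 and 277 at 2 h (-1.19 ± 0.26, adjusted p = 0.0338, 3 of 8 fits). Neither Bmyc (3 probe sets, -0.44 to 0.20) nor Cebpd (-0.08 and 0.41) was called.

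Genes that brake signalling were also among the falls, with 3 of 14 tested called lower and none higher (median -0.31). Errfi1, an inhibitor of the EGF receptor, had 16.6 and 24.9 at 8 h, against 258 and 249 at 2 h, a fall of 12.5-fold (-3.64 ± 0.43, adjusted p = 0.00120). On a second probe set the log2 change was -1.66 ± 0.37 (adjusted p = 0.0346, 5 of 8 fits). Dusp1, a phosphatase of MAP kinases, was called lower on 3 probe sets, with log2 changes of -2.09 ± 0.38 (5 of 8 fits), -1.94 ± 0.31 and -1.80 ± 0.25; the last had 125 and 63.5 at 8 h, against 419 and 230.0 at 2 h. Dusp5, a nuclear phosphatase of ERK, had 56.9 and 52.6 at 8 h, against 156 and 132 at 2 h (-1.39 ± 0.28, adjusted p = 0.0222, 4 of 8 fits). In each of these the 8 h arrays lay below both 2 h arrays.

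Of 20 tested genes of the cAMP pathway and its feedback (median 0.05) only Pde4b, a phosphodiesterase that breaks down cAMP, was called, with 167 and 165 at 8 h, against 490.2 and 386 at 2 h and a log2 change of -1.39 ± 0.25 (adjusted p = 0.0129, 5 of 8 fits). The other Pde4b probe sets did not pass the intensity filter and differed in direction. One had 34.3 and 23.2 at 8 h, against 38.5 and 43.3 at 2 h. Another had 29.5 and 17.8 at 8 h, against 7.31 and 16.1 at 2 h. A further one lay under the floor at both times, but had 28.9 and 34.5 at 4 h. Pde4d had 147 and 64.2 at 8 h, against 124 and 125 at 2 h and was not called (-0.36 ± 0.33). Crem, whose cAMP-inducible ICER products repress CREB targets, had 939.6 and 571 at 8 h, against 695 and 604 at 2 h (0.18 ± 0.31), 401 and 388 at 8 h, against 206 and 183 at 2 h (1.02 ± 0.25, adjusted p = 0.0585) and 336 and 313 at 8 h, against 197 and 149.8 at 2 h (0.91 ± 0.41) on 3 probe sets, none called. Its 4 h levels of 1286 and 1258 on the first probe set lay above both other times. Fshr had a log2 change of -0.63 ± 0.27 (adjusted p = 0.311) on the probe set that passed the filter.

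Other called falls lay outside the signalling lists. Dbp, a transcription factor driven by the circadian clock, had 8.03 and 9.79 at 8 h, against 62.7 and 104 at 2 h. Both 8 h values lay under the floor, and the fall was at least 5.93-fold (adjusted p = 0.0111). Its other probe set was not called (-1.64 ± 0.49), nor was either probe set of the clock repressor Nr1d1 (-0.77 and -0.29). Dbp was the 1 gene called of 7 on the clock list. Schip1 had 15.1 and 19.4 at 8 h, against 133 and 143 at 2 h (-3.01 ± 0.45, or -2.34 with the higher floor). Cdo1, which oxidises cysteine, was called lower on both probe sets (-2.25 ± 0.43 and -2.09 ± 0.36, each in 5 of 8 fits), the second with 123 and 100.3 at 8 h, against 718 and 312 at 2 h. Among junction genes, occludin (Ocln), a tight junction protein, had 85.1 and 57.5 at 8 h, against 304 and 152 at 2 h (-1.62 ± 0.31, 4 of 8 fits) and -1.79 ± 0.30 on a second called probe set (5 of 8 fits), with the remaining one not called (-1.44 ± 0.41, adjusted p = 0.0990). Plakoglobin (Jup) had 83.1 and 104 at 8 h, against 321 and 214 at 2 h (-1.50 ± 0.29, 5 of 8 fits). Ocln did not decline steadily, since its first probe set had 568 and 337 at 4 h, above both 2 h arrays. Smaller falls were called for the receptors Igf2r (-1.22 ± 0.27, 4 of 8 fits) and Tyro3 (-1.22 ± 0.27, 2 of 8), the sterol oxidase Msmo1 (-1.31 ± 0.29, 2 of 8) and Irgm2 (-1.85 ± 0.44, adjusted p = 0.0476, 3 of 8).

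Among the late effectors, genes that take up and store lipid showed some of the largest rises. Acsl1, which activates long-chain fatty acids by joining them to coenzyme A, had 449.6 and 362 at 8 h, against 26.5 and 23.4 at 2 h and rose 16.2-fold (4.02 ± 0.39, adjusted p = 0.000385). On 2 further probe sets both 2 h arrays were at the floor and the rises were at least 13.3-fold and at least 8.39-fold. Dgat1, which completes triglyceride synthesis, had 2647 and 2181 at 8 h, against 353 and 415 at 2 h, with close replicates, and rose 6.28-fold (2.65 ± 0.24, adjusted p = 0.000373). Acsl1 and Dgat1 were the only genes called among 23 tested on the list of fatty acid activation and triglyceride storage (median -0.20).

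Scarb1, the receptor through which cells take cholesterol from high-density lipoprotein, was called higher on all 3 probe sets. The first had 1452 and 575 at 8 h, against 111 and 75.2 at 2 h, which is a log2 change of 3.32 ± 0.27 (adjusted p = 0.000320). The others rose by 3.01 ± 0.45 and 2.06 ± 0.34 log2 units, the last called in 5 of the 8 fits. Fdx1, which carries electrons to mitochondrial steroidogenic enzymes, had 2444 and 2529.6 at 8 h, against 839 and 996 at 2 h (1.44 ± 0.28, adjusted p = 0.0197, 4 of 8 fits) and 0.72 ± 0.28 on a probe set that was not called. Star, which moves cholesterol into mitochondria, had 433 and 287 at 8 h, against 411 and 304 at 2 h on one probe set (log2 change -0.0043, SE 0.27) and 0.55 ± 0.26 on another, neither called. At 4 h the first Star probe set stood at 742 and 782, above both other times. Scarb1 and Fdx1 were the 2 called of 9 tested genes of cholesterol delivery and steroidogenesis (median 0.11). Of 16 tested cholesterol synthesis genes (median -0.30), Mvk, the mevalonate kinase, was higher on both probe sets (1.61 ± 0.27 and 1.28 ± 0.30, the second in 2 of 8 fits) and Msmo1 was lower, as given above.

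Of 20 tested genes of amino acid and pterin metabolism, 4 were called higher and 1, Cdo1, lower, with a list median of -0.12. Over all tested genes these counts were 63 and 41 of 2721. Ass1, the argininosuccinate synthase of arginine synthesis, had 774 and 208 at 8 h, against 3.40 and 2.38 at 2 h: both 2 h arrays were at the floor, and the rise was at least 29.5-fold (log2 change 4.88 ± 0.48, adjusted p = 0.000385). The 8 h arrays differed widely from each other, and both lay far above the 2 h arrays. Asns, which makes asparagine, had 1522 and 575 at 8 h, against 258 and 107 at 2 h and rose 5.65-fold (2.50 ± 0.24, adjusted p = 0.000373). Replicate 1 was higher than replicate 2 at both times. Gchfr, the feedback protein of GTP cyclohydrolase, had 152 and 123 at 8 h, against 33.1 and 25.0 at 2 h (2.25 ± 0.33), and Got1, the cytosolic aspartate aminotransferase, 1037 and 492 at 8 h, against 424 and 176 at 2 h (1.39 ± 0.25, 4 of 8 fits). Nos2, the inducible nitric oxide synthase, which uses arginine, had 108 and 66.9 at 8 h, against 23.3 and 18.3 at 2 h (2.04 ± 0.37, adjusted p = 0.0144, 5 of 8 fits). It differed in timing from most of the rises, with 18.7 and 22.4 at 4 h, near its 2 h values.

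**Figure D4:**
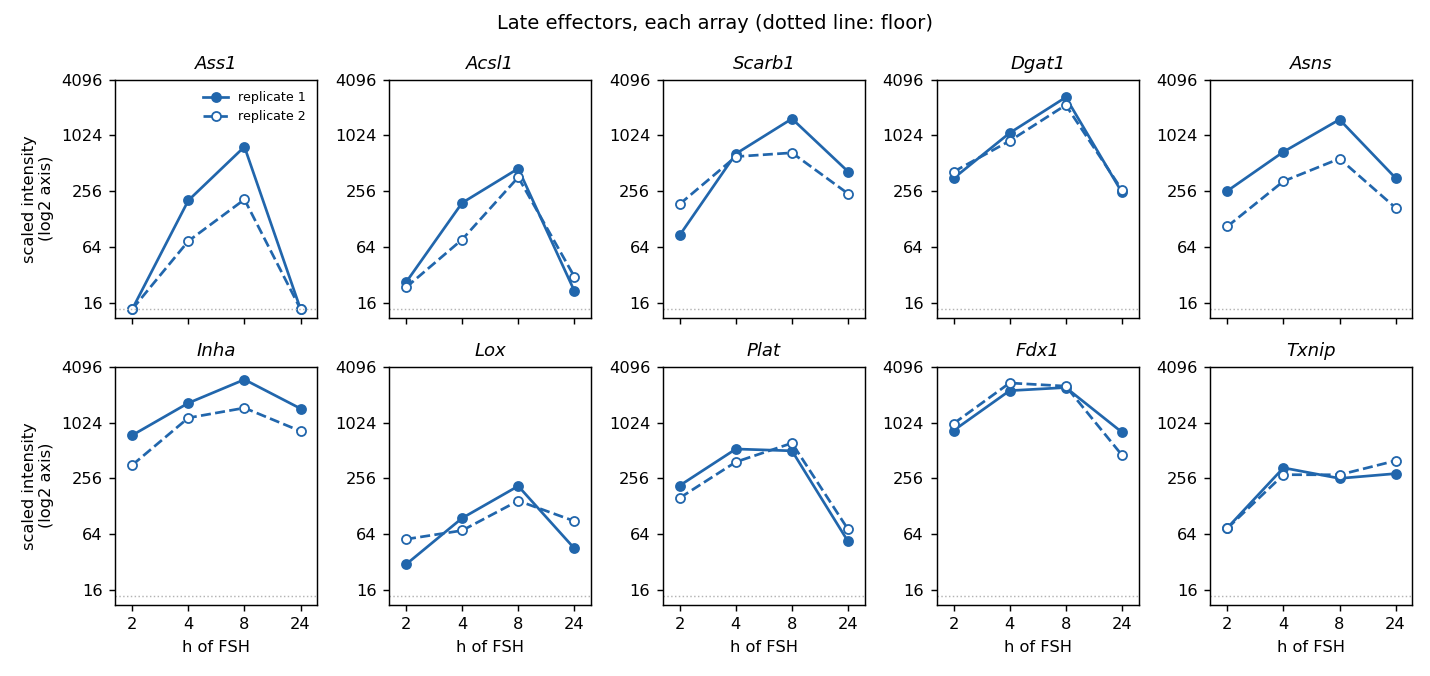
Scaled intensity (log2 axis) of 10 late effectors on each FSH array against hours of FSH (2, 4, 8 and 24), for the brightest tested probe set of each gene, with replicate 1 as filled and replicate 2 as open circles. Both 8 h points lie above the 2 h point of the same replicate in every panel, Ass1 is at the floor (dotted line) at 2 h and at 24 h, and Txnip is near its 8 h level by 4 h.

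Single genes for secreted and matrix proteins were also among the rises. Over all 2721 tested genes, 63 were called higher and 41 lower, and 1 called gene does not describe its list. Inha, which encodes the alpha subunit of inhibin, the hormone that restrains FSH release by the pituitary, had 2980.3 and 1471 at 8 h, against 746 and 355 at 2 h and rose 4.07-fold (2.02 ± 0.23, adjusted p = 0.00101). Its other probe set rose by 1.36 ± 0.23 log2 units (5 of 8 fits). It was the 1 gene called of 14 tested in inhibin, activin and TGF-beta signalling (median 0.08). The activin subunit gene Inhba had 64.5 and 46.2 at 8 h, against 66.0 and 36.7 at 2 h (0.15 ± 0.31, not called). Lox, the lysyl oxidase that cross-links collagen, was called higher on 3 probe sets (2.42 ± 0.31, 2.21 ± 0.33 and 2.09 ± 0.41), the first with 166 and 115 at 8 h, against 28.3 and 23.4 at 2 h, and was the 1 called of 20 matrix genes (median 0.11). Plat, the tissue-type plasminogen activator, had 506 and 614 at 8 h, against 214 and 157 at 2 h (1.61 ± 0.30, adjusted p = 0.0160, 4 of 8 fits), and was the 1 called of 24 proteases and inhibitors (median -0.04). Wfdc1, a whey acidic protein family member, had 1442 and 657 at 8 h, against 215 and 169 at 2 h (2.35 ± 0.27), and Calca, the calcitonin gene, 78.9 and 84.3 at 8 h, against 37.0 and 14.1 at 2 h (1.84 ± 0.38, 4 of 8 fits).

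Further rises were called for genes of other roles. Txnip, which restrains glucose uptake, had 255 and 279 at 8 h, against 74.4 and 73.6 at 2 h, with replicates close at both times (1.85 ± 0.26, adjusted p = 0.00400; second probe set 1.32 ± 0.28, 4 of 8 fits). It was the 1 called of 23 genes of glucose uptake, glycolysis and lactate. Cd24, a surface glycoprotein, was called on 3 probe sets (2.73 ± 0.41, 2.69 ± 0.44 and 2.23 ± 0.39). Ckb, the brain creatine kinase, was called on 2 (1.85 ± 0.37 and 1.47 ± 0.25, each in 4 of 8 fits), and Dgcr6 had 467 and 648 at 8 h, against 145 and 177 at 2 h (1.78 ± 0.24). The largest other rises with a symbol were those of Nefh, a neurofilament subunit gene (2.98 ± 0.47, 1 of the 2 h arrays at the floor, 2.39 with the higher floor, 5 of 8 fits), Neo1, a netrin receptor (2.75 ± 0.47, 1 of the 2 h arrays at the floor), Cenpi, a centromere protein (2.71 ± 0.38), Fat1, a large cadherin (2.56 ± 0.51, 5 of 8 fits), and Madd (2.56 ± 0.53, 1 of the 2 h arrays at the floor). Fat1 had 330 and 180 at 8 h, against 113 and 15.1 at 2 h, the last close to the floor. Its change was 1.54 within replicate 1 and 3.58 within replicate 2. Smaller rises were called for the tropomyosin Tpm4 (1.13 ± 0.25, 2 of 8 fits) and the extracellular superoxide dismutase Sod3 (1.44 ± 0.34, 3 of 8 fits). Ezr, the membrane and actin linker ezrin, had 864 and 659 at 8 h, against 462 and 293 at 2 h and narrowly missed the threshold (1.04 ± 0.25, adjusted p = 0.0538).

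No gene was called by limma among 25 tested chaperones, 20 cell cycle genes or 37 cytosolic ribosomal protein genes. Their median log2 changes were 0.02, -0.05 and -0.08. Of their 54, 31 and 55 tested probe sets, 5, 0 and 1 had an unadjusted limma p under 0.05, against 652 of all 4426. With 3.32% of all tested probe sets called, lists of this size hold few calls in any case. Of the other lists, Nos2 was the 1 gene called of 8 early secreted and inflammatory genes (median -0.28), Tyro3 the 1 of 18 Sertoli products (median -0.23), and Sod3 the 1 of 32 antioxidant and glutathione genes (median -0.17). Igf2r and Tyro3 were the 2 of 17 growth factor receptor and insulin-like growth factor genes (median -0.22), and Tpm4, Jup and Ocln the 3 of 25 junction and cytoskeleton genes (median 0.18). Calca, Cd24, Ckb, Dgcr6 and Wfdc1 were called higher and Irgm2 and Schip1 lower among 11 tested genes of a list picked on these samples for steep rises with FSH (median 0.93), which is no independent evidence.

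**Figure D5:**
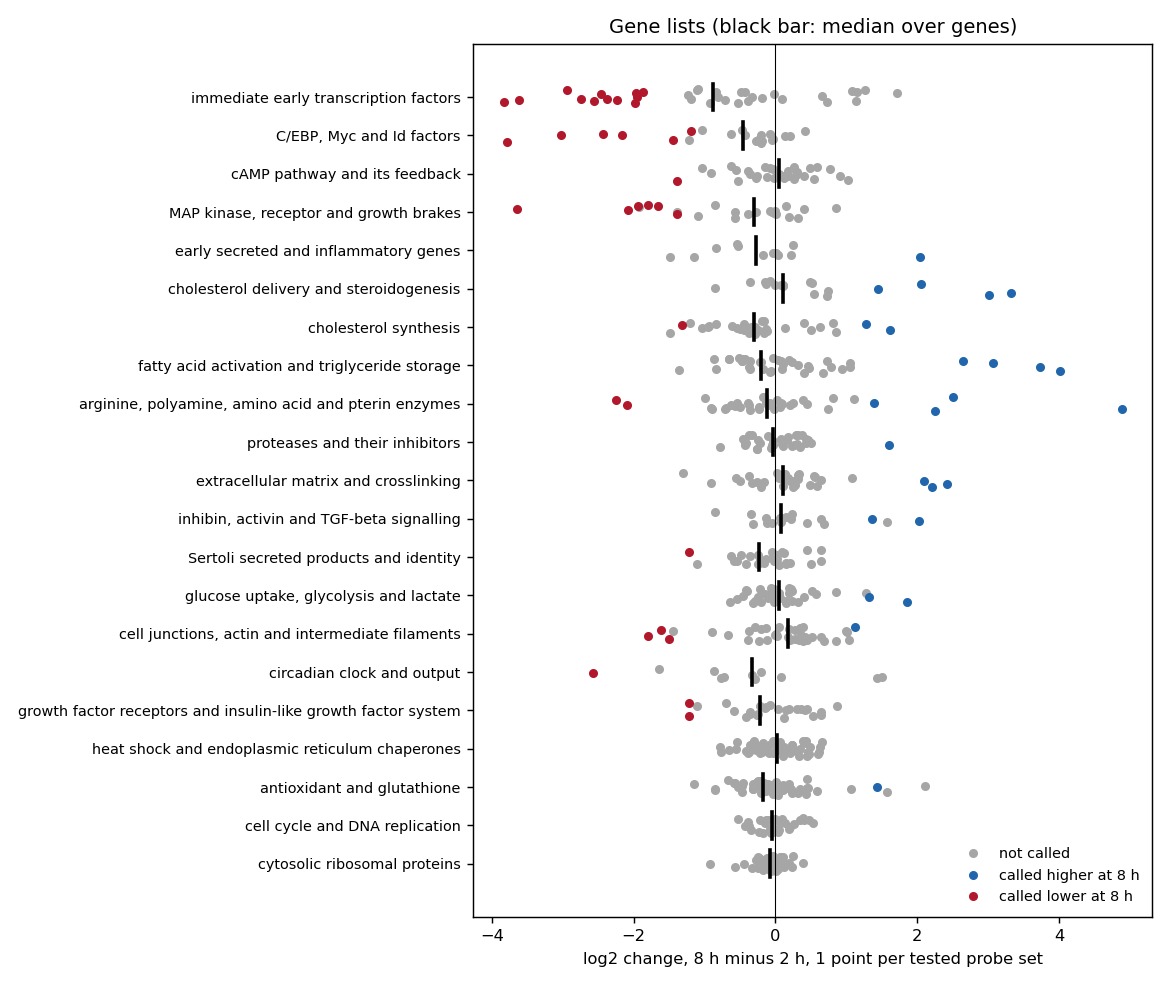
Log2 change, 8 h minus 2 h, of each tested probe set (points) in 21 gene lists, blue where called higher, red where called lower and grey where not called, with the median over genes as a black bar (brightest probe set per gene). Red points gather in the immediate early, C/EBP and Id, and brake lists, and blue points lie in lists whose medians fall between -0.30 and 0.18.

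The 4 h arrays give a level within the interval. For 57 of the 63 falls and 74 of the 84 rises the mean log2 level at 4 h lay between those at 2 h and 8 h. The called probe sets were chosen for a gap between 2 h and 8 h, which makes a 4 h level inside it likely. The share over all tested probe sets was not taken. At 4 h the rises had covered a median of 64.7% of their log2 change, and 64 of the 84 had covered at least 50%. The falls had covered a median of 40.8%, and 20 of the 63 at least 50%. The difference between these shares was not tested. Txnip and Fdx1 were near their 8 h levels by 4 h, Txnip with 332 and 279.5 and Fdx1 with 2261 and 2735, as was Id1 among the falls with 63.2 and 63.5. Dgat1 was midway on the log2 scale, with 1089 and 894. By 24 h most falls remained low and most rises did not stay high: the falls had a median log2 difference of 0.14 from 8 h and of -1.69 from 2 h, while the rises had -1.47 from 8 h and 0.19 from 2 h. At 24 h 78 of the 84 rises were lower than at 8 h, and 33 of the 63 falls were higher than at 8 h. These medians are over probe sets chosen for their 2 h and 8 h levels, and no test was made of them. For 28 of the 84 rises both 24 h arrays still lay above both 2 h arrays. The mean log2 level at 24 h was above that at 8 h for 6 of the 84. Among these were Wfdc1 with 1495 and 1199 at 24 h, Nos2 with 97.3 and 75.1 and Txnip with 287 and 396. In 3 of the 63 falls both 24 h arrays lay above both 2 h arrays, namely Dbp with 313 and 143 at 24 h, Tyro3 and Igf2r. Tyro3 had 593 and 402 at 24 h, against 262 and 289.5 at 2 h. Igf2r had 235 and 185 at 24 h, against 173 and 118 at 2 h.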

How the data were processed

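The deposited values are linear intensities, 1 per probe set and array, with none below 0; the labels state no processing, aligner or build, and how the authors scaled them is not given in the sources used here. The number of arrays limits precision.

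Arrays were divided by 0.898 to 1.03 to a common 75th percentile of 109, a floor of that percentile divided by 8 was set, log2 was taken, and the 59 control probe sets were left out. limma 3.58.1 (R 4.3.3) was fitted to the 8 FSH arrays with 1 mean per time, an intensity trend and replicate number as a blocking term, which left 3 residual degrees of freedom. P-values were adjusted by Benjamini-Hochberg over all tested probe sets. The fit was also run on data simulated from its own means, spread and replicate term. Such a run checks the code and cannot test whether the block or the spread is right for these arrays. Alternatives were the block, the arrays fitted, the scaling, the floor, the filter, the trend and each FSH array left out. Replicate numbers pair the arrays: their deviations from time means correlated at 0.474 to 0.706 in each of the 6 pairs of times, and every array lay closest to one of its own number. Between replicates of a time r was 0.885 to 0.906. No 2 arrays held identical values.

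Gene symbols are those of the platform annotation: 7006 probe sets had 1, 308 several and 1426 none; 6985 of the 7006 matched rat RefSeq genes (GRCr8) by identifier. Named genes are the 15 largest called rises and falls with 1 symbol and both pairs alike, list members that were called, and a set of FSH-linked genes, of which Btg2 has no probe set with a single symbol. Members, lists and this rule were chosen with earlier results of these data known.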

Additional observations from a re-analysis of the deposited data

How the results depend on the processing

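The fit with the replicate block called 84 rises and 63 falls. With no replicate block 2 were higher and 4 lower, all among the 147. With all 10 arrays and the replicate block the counts were 33 and 33, again all among the 147; the cause was not tested. With no intensity filter, which adjusts over 8740 probe sets, they were 4 and 6, of which 3 and 5 were among the 147. The other planned settings kept both counts within 1.5 times: only 2 h and 8 h arrays, the 2 h, 4 h and 8 h arrays, values as deposited, quantile normalization, floors at the percentile divided by 4 or 16, a filter at the 75th percentile, and no trend gave 56 to 113 higher and 48 to 73 lower. Leaving out 1 array at a time gave 16 to 116 higher and 17 to 78 lower; without 8 h replicate 2 there were 64 and 76, and without a 24 h array 111 or 116 and 73 or 78. The calls that were tested kept their direction in all of these fits, which the block cannot change and which calling probe sets alike in both pairs makes likely. Named probe sets that changed sign when 1 array was left out were all uncalled: Pde4d L27060_at (-0.89 to 0.17, above 0 without 2 h replicate 2), Id1 L23148_at (-0.66 to 0.16, above 0 without 8 h replicate 2), Cebpd rc_AA946292_at (-0.26 to 0.094, above 0 without 2 h replicate 1), Star AB001349_at (-0.26 to 0.26, above 0 without 8 h replicate 2, and 0.15 without 2 h replicate 1), Inhba M37482_at (-0.075 to 0.38, below 0 without 2 h replicate 2), Crem S66024_g_at (-0.25 to 0.60, below 0 without 8 h replicate 1) and Bmyc Z38067exon_g_at (-0.14 to 0.53, below 0 without 2 h replicate 2). Crem, Ezr and an uncalled Ocln probe set passed the threshold in 4, 5 and 4 alternatives. Low intensity limits genes at the floor, whose folds are bounds.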

Other observations

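Called genes outside the lists added further regulators to the falls. These genes, and those of the next paragraph, were picked out after their values were seen. Beside a change stands the number of the 8 fits without 1 FSH array that called the probe set, where any given is under 6. The serine kinases Pim1 and Pim3, growth factor effectors, had log2 changes of -2.17 ± 0.37 and -1.40 ± 0.27 (each 5 of 8 fits); Pim1 had 16.3 and 22.0 at 8 h, against 76.9 and 94.7 at 2 h. Ppp1r15a, which directs a phosphatase to the translation factor eIF2alpha, fell on both probe sets (-1.66 ± 0.31 and -1.66 ± 0.34, 4 and 4 of 8 fits), as did the chemokine receptor Cxcr4 (-1.88 ± 0.32 and -1.10 ± 0.25, 5 and 2 of 8 fits) and the small GTPase Rasl11b (-2.12 ± 0.26 and -1.32 ± 0.25, 8 and 4 of 8 fits). Rasl11b had 84.6 and 64.6 at 8 h, against 331 and 311 at 2 h. The adaptor Grb14 had -1.94 ± 0.30, the nucleoside transporter Slc29a1 -1.50 ± 0.26 (5 of 8 fits) and the natriuretic peptide gene Nppc -1.34 ± 0.30 (3 of 8 fits). The incretin receptor Gipr had 12.9 and 7.09 at 8 h, against 62.6 and 59.4 at 2 h and was at least 4.47-fold lower (4 of 8 fits). A probe set without a single gene symbol here (none or several), M60921_g_at, had one of the lowest adjusted p-values of the comparison. It had 69.4 and 55.5 at 8 h, against 1151 and 536 at 2 h (-3.66 ± 0.29, limma adjusted p = 0.000320). The probe set M60921_at, also without a single symbol, was called lower too (-1.85 ± 0.29).

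Single genes outside the lists were also among the rises. Mapkapk2, a kinase activated by p38, had 1118 and 455 at 8 h, against 240.0 and 115 at 2 h (2.10 ± 0.24). Gucy1b1, a subunit of the nitric oxide receptor guanylate cyclase, had 457 and 316 at 8 h, against 94.2 and 81.9 at 2 h (2.11 ± 0.31). Ndufa5, a subunit of respiratory complex I, had 2099 and 1552 at 8 h, against 694 and 418 at 2 h (1.75 ± 0.23). The ATP synthase subunit gene Atp5f1d had 1.23 ± 0.23 (5 of 8 fits) and the outer membrane channel gene Vdac1 1.35 ± 0.26 (5 of 8 fits). Hagh, which clears methylglyoxal products with glutathione, had 713 and 633 at 8 h, against 115 and 236 at 2 h (2.02 ± 0.34). Ss18, a chromatin remodelling subunit, had 430.4 and 334 at 8 h, against 133 and 82.7 at 2 h (1.85 ± 0.25). The endothelin-converting enzyme gene Ece1 rose on both probe sets (1.54 ± 0.28 and 1.13 ± 0.23, 6 and 2 of 8 fits), as did RT1-DMa, an MHC class II chaperone gene (2.04 ± 0.43 and 1.17 ± 0.24, 4 and 4 of 8 fits). So did the adhesion receptor gene Adgrl2 (1.81 ± 0.35 and 1.49 ± 0.30, 5 and 5 of 8 fits) and Aplp2, a relative of the amyloid precursor protein (1.46 ± 0.33 and 1.36 ± 0.32, 3 and 3 of 8 fits). On its second probe set Aplp2 had 2798 and 593 at 8 h, against 944 and 265 at 2 h, the 1 call among 147 whose groups overlapped.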
